A study of Mus musculus with 8 samples.

Results

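Cytochrome P450 families 1 to 4 are the P450 enzymes that oxidise drugs, plant compounds, steroids and fatty acids. The members were chosen by symbol alone, as every gene of the deposited gene table named Cyp with a family number from 1 to 4, a subfamily letter and a gene number, which gave 76 of 33696 genes. No expression value entered that choice. P450 enzymes are haem proteins of the endoplasmic reticulum that take electrons from P450 oxidoreductase (Por) and insert an oxygen atom into their substrate. Families 1 to 3 hold most of the enzymes that handle foreign compounds and arachidonic acid, and family 4 holds the fatty acid omega-hydroxylases. Many of the genes answer to ligand-activated regulators, the aryl hydrocarbon receptor (AHR), the pregnane X receptor (PXR), the constitutive androstane receptor (CAR) and the PPAR family, and in the gut their products meet compounds made by resident bacteria.

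The study sequenced single epithelial cells sorted from mouse cecum and colon to compare hosts with and without their microbiota. Its groups were control mice (Ctrl), antibiotic-treated mice (Abx_4D and Abx_14D) and germ-free mice (GF), and the labels give no strain, age, sex or drug and do not say what 4D and 14D stand for. The sort kept EPCAM+ CD45- cells and mixed CD44+ with CD44- cells at 1:1, so class shares were set by the sort and no share is compared. A split-pool kit barcoded 32 loaded samples, 4 of each tissue and group, across 8 sublibraries. Cells were pooled by condition before sorting per the labels' protocols and no label says that the numbered samples came from separate animals, so p-values below reflect only how far these samples scatter, and that scatter may be technical.

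After removal of cells under 500 transcripts, the cecum gave 1330 Ctrl, 1511 Abx_4D, 2296 Abx_14D and 1636 GF cells, and the colon gave 3852 Abx_14D and 4215 GF cells, with 1821737 to 30127065 transcripts a sample. Colon Ctrl held 50 cells and colon Abx_4D took 857 of its 1026 cells from 1 sample, so neither was compared. Cells were put into classes by marker scores that use no P450 gene: 1666 cecal and 240 colonic cells were absorptive (Slc26a3, Krt20, Tmigd1, Emp1, Car4, Clca4a, Clca4b), 2272 and 4756 were crypt cells (stem or cycling markers) and 431 and 648 were goblet cells. A sample entered a class with at least 20 cells there, which left Ctrl samples 2, 3 and 4 and Abx_4D samples 1, 3 and 4 for cecal absorptive cells, and GF samples 1, 2 and 3 for colonic ones. Immune markers summed to at most 1.86 CPM (transcripts scaled to a common library total) and stromal markers to at most 8.15 CPM in cecal absorptive cells. Levels are CPM of the summed transcripts of a sample and class, and tests are edgeR quasi-likelihood tests with Benjamini-Hochberg adjustment over all genes.

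Few members carried nearly all of the family's RNA. The 76 members together had 311015 transcripts in the cells used, 0.124% of all transcripts. Cyp2c55, which hydroxylates arachidonic acid, had 107188 of them, Cyp2c65 had 53669 and Cyp3a13, a member of the drug-metabolising Cyp3a subfamily, had 35151. The 15 Cyp2c members held 54.4% of member transcripts, the 9 Cyp4f members 16.1%, the 7 Cyp3a members 11.4%, the 9 Cyp2d members 5.85% and the 8 Cyp2j members 5.25%. By total, 31 members had more than 100 transcripts, 17 had 11 to 100, 25 had 1 to 10, and Cyp2a22, Cyp4a14 and Cyp4a31 had none. The genes best known as inducible by foreign compounds were nearly silent in these cells: Cyp1a1, the classic AHR target, had 8 transcripts, Cyp1a2 had 2, Cyp1b1 had 2, Cyp2e1, the ethanol-oxidising enzyme, had 6, Cyp3a11, the classic PXR target of liver, had 2 and Cyp4a10, a PPAR-alpha target, had 3. Over the 250486622 transcripts of the cells used, a member with 0 counts can have reached at most 0.012 CPM, an upper limit for counting error only. In all, 27 members passed the low-count filter of at least 1 of 29 comparisons and 25 of them passed a test there, so 51 members are covered by counts alone or by the few values given for them.

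Cyp2c55, Cyp2c65 and Cyp2c66 lie next to one another among the members on chromosome 19, and they are shown here with Cyp4f14 because the comparisons below turn on them. The longest coding transcripts of Cyp2c65 and Cyp2c66 are 96.4% identical over 1611 aligned bases, so reads could be split between these genes by the authors' counting and their separate values are uncertain. Cyp2c55 is less alike, with 77.6% identity to its nearest member, Cyp2c29. The sequences below are the bases before the annotated start (RefSeq, GRCm38.p6, up to 250 bases), printed 5' to 3' on the gene's strand, with matched motifs in capitals. They cover chr19:39006769-39006939 and chr19:39060756-39061005 and chr19:39113648-39113897 on the plus strand, and chr17:32917377-32917606 on the minus strand. The Cyp2c55 and Cyp4f14 stretches are 171 and 230 of the 250 bases searched, and Cyp4f14 has 4 listed starts, of which the one listed first was used.
Cyp2c55: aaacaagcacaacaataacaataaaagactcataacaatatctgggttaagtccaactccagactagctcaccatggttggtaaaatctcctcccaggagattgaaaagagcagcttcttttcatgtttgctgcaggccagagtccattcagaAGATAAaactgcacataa
Cyp2c65: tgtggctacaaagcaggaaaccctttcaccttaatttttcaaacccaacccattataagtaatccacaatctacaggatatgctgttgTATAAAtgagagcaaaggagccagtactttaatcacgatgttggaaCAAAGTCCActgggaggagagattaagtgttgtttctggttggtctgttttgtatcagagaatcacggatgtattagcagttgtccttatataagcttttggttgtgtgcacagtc
Cyp2c66: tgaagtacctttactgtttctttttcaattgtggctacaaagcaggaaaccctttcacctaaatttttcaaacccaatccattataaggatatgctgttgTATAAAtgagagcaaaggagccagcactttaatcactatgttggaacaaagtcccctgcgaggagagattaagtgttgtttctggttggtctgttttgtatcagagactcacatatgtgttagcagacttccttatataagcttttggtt
Cyp4f14: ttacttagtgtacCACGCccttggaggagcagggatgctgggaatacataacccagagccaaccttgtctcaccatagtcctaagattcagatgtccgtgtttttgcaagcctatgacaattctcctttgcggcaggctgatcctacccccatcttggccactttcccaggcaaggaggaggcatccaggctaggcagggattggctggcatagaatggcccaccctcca
The 6 short motifs named below were searched on both strands, which is why a capital stretch may read as a motif's reverse complement. TATAAA stood 162 bases before the start of Cyp2c65, 150 before that of Cyp2c66 and 29 before that of Cyp2c55, the last outside the stretch printed, and 12.368% of 32851 promoters hold it. The HNF4-like word CAAAGTCCA stood 116 bases before the start of Cyp2c65, and no match to it lay in the Cyp2c66 window, whose letters are otherwise much alike there. That word was in 0.384% of all promoters and in 8 of 69 windows of the members, those of Cyp2c40, Cyp2c65, Cyp2c67, Cyp2c68, Cyp2c69, Cyp2c70, Cyp3a11 and Cyp3a16, several of which are near-copies. Cyp2c55 held the word AGATAA at 97 bases before its start, as 9.988% of all promoters do. Cyp4f14 held the AHR core word GCGTG on the other strand, printed in capitals, at 237 bases before its start, and 28.157% of all promoters hold it. The windows of the other listed Cyp4f14 starts did not hold that word, and 13 of 69 member windows did. The other words, AGGTCA and GTTAAT, were in 17 and 9 member windows against 14.024% and 6.432% of all promoters. A match describes the letters of these windows and is no evidence of binding.

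Most of the tested members were higher in absorptive than in crypt cells. The low-count filter also kept members found almost only in absorptive cells. Among them were Cyp2d34, Cyp2d13, Cyp2d12, Cyp2d9, Cyp2d10 and Cyp2d22 in the cecum, and Cyp2d12 and Cyp2d13 in the colon. It kept Cyp2j9 in the colon through crypt cells alone. The direction of these members was set by the filter, so they add no support to the counts below. In the cecum 23 of 25 tested members differed between absorptive and crypt cells of the same samples (n = 14), where 84.6% of all genes differed, and in the colon 21 of 22 did (n = 7), against 70.7% of all genes. In the cecum 19 members were higher in absorptive cells, against 23.1% of all genes, and 4 were lower, against 61.6%. In the colon 17 were higher, against 22.1% of all genes, and 4 were lower, against 48.6%. The median log2 difference of the tested members was 1.22 in the cecum and 2.23 in the colon, beside -0.56 and -0.42 over all genes tested. Under trimmed-mean scaling the medians over all genes moved to -0.07 and -0.12, and the members called there numbered 23 and 21.

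Among the Cyp2d members, Cyp2d34, Cyp2d13 and Cyp2d12 were nearly limited to absorptive cells. In the cecum the low-count filter kept them through absorptive cells alone, so their direction there was set by that filter. Cyp2d34 stood at 120.7 ± 31.2 CPM (SD) in cecal absorptive cells and 1.29 ± 1.36 CPM in crypt cells, a log2 difference of 6.49 ± 0.18 (SE), and its colonic difference was 5.75 ± 0.22. Cyp2d13, listed by RefSeq as a transcribed pseudogene, differed by 5.55 ± 0.25 in the cecum and 6.59 ± 0.32 in the colon. Cyp2d12 had 59 transcripts in cecal absorptive cells and 0 in crypt cells, at least 26.95-fold higher against a limit of 3 counts over the class, and 57 against 7 in the colon, a ratio of 149.4 (exact 95% interval 68.02 to 388.3, counting error only). Cyp2d9 (108 against 4 transcripts in the cecum) and Cyp2d10 (88 against 6) were also higher, while Cyp2d26 was spread more evenly with 1.83 ± 0.10. Cyp2d22, the mouse gene most often set beside human CYP2D6, had 89 transcripts in absorptive and 5 in crypt cells of the cecum. Of the 89, 66 came from Ctrl samples. Its class difference of 3.37 ± 0.66 ended without Abx_14D sample 3 (edgeR adjusted p = 0.996), a sample whose cells had a median mitochondrial share above 0.5%.

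For the abundant enzymes the class differences of the 2 tissues are given side by side. Cyp2c55 was at 2395 ± 949 CPM in cecal absorptive and 89.1 ± 44.0 CPM in crypt cells (log2 difference 4.83 ± 0.12), and at 1054 ± 153 against 22.7 ± 3.99 CPM in the colon (5.52 ± 0.11). Cyp3a13 differed by 4.30 ± 0.12 in the cecum and 3.38 ± 0.11 in the colon, and Cyp4f14, an omega-hydroxylase of leukotriene B4, by 3.92 ± 0.10 and 5.03 ± 0.15. Cyp2c65 was already high in cecal crypt cells, at 262.2 ± 58.1 CPM against 553.4 ± 169.5 CPM in absorptive cells (1.04 ± 0.06), but in colonic crypt cells it was at 38.4 ± 9.46 CPM against 416.9 ± 89.0 CPM (3.39 ± 0.12). Cyp2c66 did not pass in the cecum (22.3 ± 9.59 against 21.3 ± 6.77 CPM) and was higher in absorptive cells of the colon by 2.40 ± 0.46, a call that ended without colon GF sample 1 (adjusted p = 0.114). Smaller differences of 0.51 to 1.81 in the cecum were those of Cyp4b1, Cyp4f13, Cyp4v3, Cyp2s1, Cyp4f40, Cyp4f16, Cyp2j8 and Cyp2j6, and that of Cyp2j8 ended without Ctrl sample 4 (adjusted p = 0.136). Whether the tissues differ in these class differences was not tested. The cecal values average over Ctrl, Abx_4D, Abx_14D and GF, the colonic ones over Abx_14D and GF only, so they also come from unlike groups.

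The members higher in crypt cells were few and low. Cyp2w1, known from fetal gut and colon tumours, was at 14.1 ± 7.15 CPM in cecal crypt cells and 3.33 ± 2.60 CPM in absorptive cells (log2 difference -2.13 ± 0.21), with -2.24 ± 0.49 in the colon. Cyp2j9, of a subfamily of arachidonic acid epoxygenases, differed by -2.17 ± 0.37 in the cecum and had 410 transcripts in colonic crypt against 2 in colonic absorptive cells, a ratio of 11.17 (3.073 to 92.56). Its direction in the colon was set by the low-count filter, which it passed through crypt cells alone. Cyp4f17 differed by -1.20 ± 0.28 and -1.26 ± 0.45, the colonic call being lost under trimmed-mean scaling (adjusted p = 0.0658) and without Abx_14D sample 1 (0.0664) or GF sample 1 (0.0901). Cyp2r1, a vitamin D 25-hydroxylase, differed by -0.70 ± 0.32 in the cecum and -2.16 ± 0.68 in the colon, and its cecal call was lost under trimmed-mean scaling (adjusted p = 0.55) and without any of 9 single samples (0.0513 to 0.201). The heat map of levels by class shows these patterns for all members that passed a test.

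**Figure D1:**
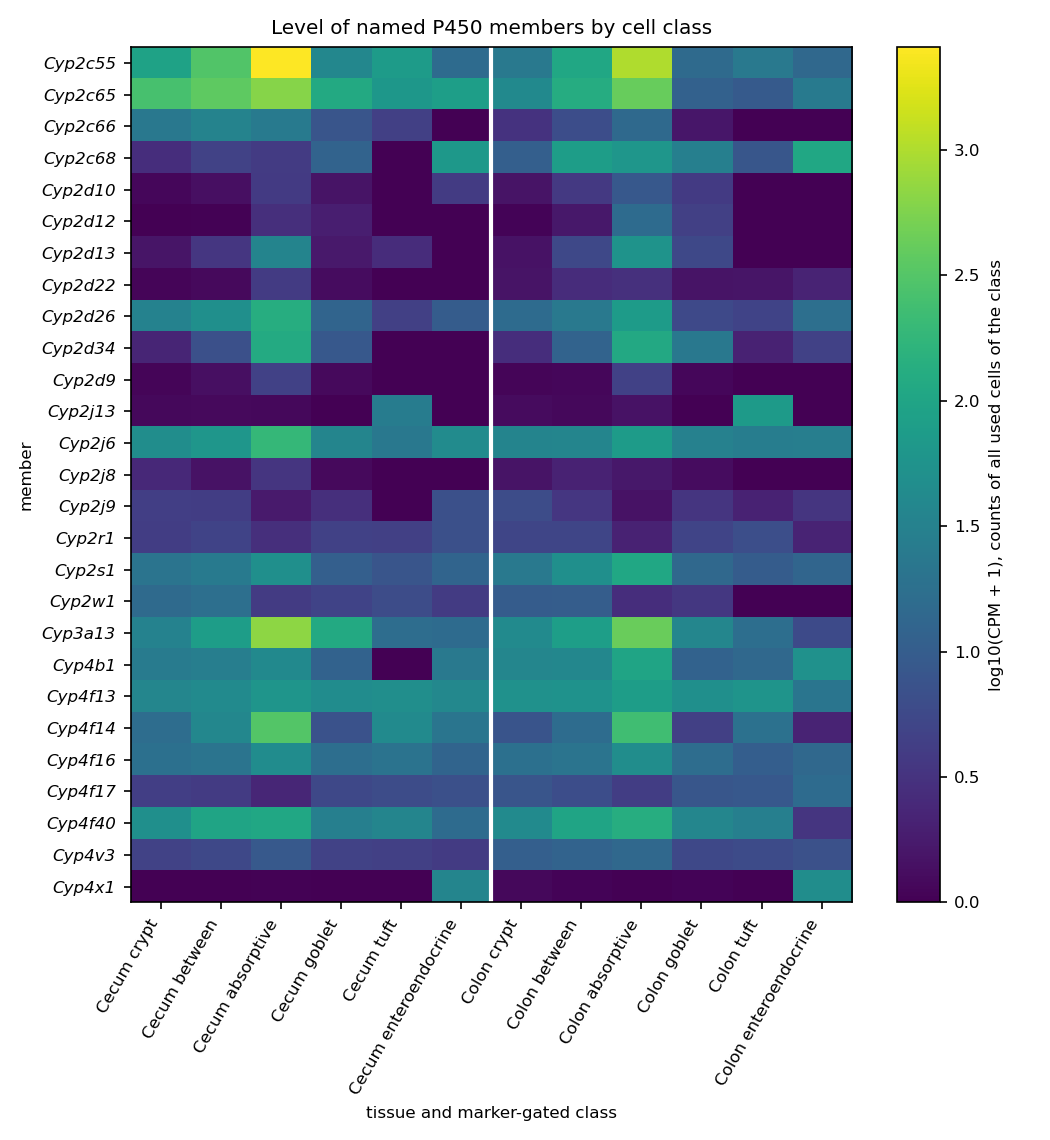
Level of 27 members in each cell class of cecum and colon, on a scale of log10(CPM + 1), with 1 row per member and 1 column per class and tissue. Levels come from the summed counts of all used cells of a class, over Ctrl, Abx_4D, Abx_14D and GF in the cecum and Abx_14D and GF in the colon. The bright block of Cyp2c55, Cyp3a13, Cyp4f14 and the Cyp2d members lies in the absorptive columns, Cyp2c65 is also bright in cecal crypt cells, and Cyp2j13 and Cyp4x1 show in the tuft and enteroendocrine columns.

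In cecal absorptive cells more of the tested members were higher than lower in the antibiotic and GF groups. Cyp4f14 had the largest rise in both antibiotic groups and Cyp2d26 in GF. Cyp2d22 was lower in all 3 groups, but it passed the low-count filter through Ctrl alone, so its direction was set by that filter. Cyp2c55 was lower in Abx_4D by a call that most left-out samples of that comparison ended. The groups Abx_4D, Abx_14D and GF were each compared with Ctrl, and the 3 comparisons share the same 3 Ctrl samples. In Abx_4D 7 of 16 tested members passed (5 higher, 2 lower), where 3.65% of all genes did (2.17% higher, 1.49% lower). In Abx_14D 9 passed (8 higher, 1 lower), against 7.20% of all genes (4.18% higher, 3.01% lower), and in GF 8 passed (7 higher, 1 lower), against 13.0% (7.52% higher, 5.53% lower). The median log2 change of the 16 members was 0.60, 0.95 and 0.76, beside 0.18, 0.17 and 0.18 over all genes, which trimmed-mean scaling brought to 0.03, 0.01 and 0.01. With that scaling 4, 9 and 7 members passed.

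Cyp4f14 rose in all 3 groups. Its level was 108, 72.4 and 72.3 CPM in the Ctrl samples, 252, 315 and 348 CPM in Abx_4D, 295, 409.7, 479 and 443 CPM in Abx_14D, and 224, 269, 209 and 309.6 CPM in GF. Every sample of the antibiotic and GF groups lay above every Ctrl sample, and the lowest of them was a GF sample. The log2 change against Ctrl was 1.92 ± 0.23 in Abx_4D (edgeR adjusted p = 3.4e-05), 2.34 ± 0.23 in Abx_14D (3.76e-07) and 1.65 ± 0.22 in GF (2.1e-05), and these calls held without each single sample in turn. Per kilobase of transcript Cyp4f14 stood at 37.9 ± 9.29 CPM in Ctrl, below Cyp2c55, Cyp2c65, Cyp3a13, Cyp2d34, Cyp4f40 and Cyp4f13, and at 183.1 ± 35.9 CPM in Abx_14D, where only Cyp2c55, Cyp2c65 and Cyp3a13 were higher.

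Among the other family 4 members, Cyp4b1, which activates some furans to toxic products, was at 36, 21.1 and 9.26 CPM in Ctrl, 29.9, 28.9 and 32.7 CPM in Abx_4D, 54.9, 80.3, 43.5 and 64.2 CPM in Abx_14D, and 88.2, 57.2, 26.6 and 43.6 CPM in GF. All Abx_14D samples lay above Ctrl, whereas GF sample 3 lay within the Ctrl range. Its log2 change was 1.71 ± 0.39 in Abx_14D (adjusted p = 0.00833) and 1.49 ± 0.39 in GF (0.0143), and both calls ended without Ctrl sample 4, the lowest of them (adjusted p = 0.109 and 0.16). Cyp4f16 rose by 1.03 ± 0.29 in Abx_14D, a call lost without Ctrl sample 2, 3 or 4 or without Abx_14D sample 3 (adjusted p = 0.0552 to 0.181). Cyp4f16 is 96.1% identical to Cyp4f37 over their transcripts, so its counts are uncertain. Cyp4f13 and Cyp4f40, the other abundant omega-hydroxylase relatives, passed in none of the 3 comparisons and ranged from 43.7 to 87.5 CPM and from 85.7 to 157 CPM over all samples.

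Cyp3a13 and Cyp2c65 rose together in the 3 groups. Cyp3a13 was at 299, 419.8 and 329 CPM in Ctrl, 643, 636 and 632 CPM in Abx_4D, 487, 938, 912 and 871 CPM in Abx_14D, and 587, 754, 493 and 621 CPM in GF. Cyp2c65 was at 257, 338 and 379 CPM in Ctrl, 731, 561 and 596 CPM in Abx_4D, 628, 565, 927 and 619 CPM in Abx_14D, and 600.5, 437, 483 and 626 CPM in GF. Neither gene had a sample of the other groups within the Ctrl range. The log2 changes in Abx_4D, Abx_14D and GF were 0.86 ± 0.23, 1.19 ± 0.22 and 0.80 ± 0.22 for Cyp3a13 (adjusted p = 0.0387, 0.00117 and 0.016) and 0.94 ± 0.22, 1.06 ± 0.21 and 0.71 ± 0.21 for Cyp2c65 (0.0179, 0.00226 and 0.0261). The Abx_14D calls held without each sample. In Abx_4D the call of Cyp3a13 was lost without any of the 6 samples compared (0.0563 to 0.142), with DESeq2 (0.0586) and under trimmed-mean scaling (0.0978), and that of Cyp2c65 without Ctrl sample 2 or 3 or Abx_4D sample 1 (0.0682 to 0.0861). In GF Cyp3a13 was lost without Ctrl sample 2 or 4 (0.0685 and 0.0859) and Cyp2c65 without Ctrl sample 2 or 3 or GF sample 1 or 4 (0.0637 to 0.108). Cyp2c66, the near-copy of Cyp2c65, was at 12.9 to 15.4 CPM in Ctrl and 10.2 to 41.9 CPM elsewhere and passed in none.

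Cyp2c55, the most abundant member per kilobase in every group, did not follow its neighbour. Its level was 2074, 4310.4 and 4520.5 CPM in Ctrl, 1646, 1919 and 1635 CPM in Abx_4D, 1195, 2461, 2730.1 and 2458 CPM in Abx_14D, and 1870.5, 2058, 2099.9 and 2546 CPM in GF. Ctrl samples 3 and 4 were the highest of all, but Ctrl sample 2 lay among the Abx_14D and GF samples. The log2 change was -1.07 ± 0.29 in Abx_4D (adjusted p = 0.0389), -0.72 ± 0.26 in Abx_14D (0.106) and -0.76 ± 0.26 in GF (0.0589). The Abx_4D call was lost without any Abx_4D sample (0.0727 to 0.111), without Ctrl sample 3 or 4 (0.163 and 0.164), without GF sample 2 or 3 (0.0502 and 0.0501) and with stricter gates (0.112). Ctrl sample 2 and Abx_14D sample 1, the lowest of their groups in Cyp2c55, were also the lowest in the summed absorptive gate markers, at 4952 CPM against 8209.6 and 8699 CPM in the other Ctrl samples and at 4765 CPM against 8615 to 11609.7 CPM in the other Abx_14D samples. The part of this in the values was not tested.

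The Cyp2d members split. Cyp2d22 was at 10.3, 15.8 and 12.8 CPM in Ctrl, 1.76, 2.19 and 1.96 CPM in Abx_4D, 0, 0, 0.43 and 0 CPM in Abx_14D, and 1.06, 1.57, 1.61 and 0.752 CPM in GF. All samples of the other groups lay far below Ctrl. Cyp2d22 passed the low-count filter through Ctrl alone, so the direction of its change was set by that filter. Its summed level in Ctrl was 58.15-fold that in Abx_14D (66 against 3 transcripts, exact 95% interval 19.05 to 289.2, counting error only), and the log2 change was -2.70 ± 0.55 in Abx_4D (adjusted p = 0.00634) and -3.36 ± 0.50 in GF (7.4e-05). Cyp2d26 was at 64.3, 44.1 and 57.3 CPM in Ctrl, 113, 78 and 60.8 CPM in Abx_4D, 107, 147, 145 and 157 CPM in Abx_14D, and 158, 174, 191 and 236 CPM in GF. It rose by 1.38 ± 0.23 in Abx_14D (3.94e-04) and 1.83 ± 0.23 in GF (8e-06), while in Abx_4D the groups overlapped (0.60 ± 0.25, adjusted p = 0.192). The Cyp2d13 transcript rose by 1.62 ± 0.45, 1.91 ± 0.41 and 1.77 ± 0.42 from 4.79 to 20.6 CPM in Ctrl, with Abx_4D and Abx_14D samples inside the Ctrl range, and all 3 calls ended without Ctrl sample 3 (adjusted p = 0.278, 0.092 and 0.0938). Cyp2d34, at 115 to 185 CPM in Ctrl and 58.6 to 154 CPM elsewhere, passed in none.

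Of the remaining family 2 members, Cyp2j6, an epoxygenase relative, was at 79.8, 116 and 127 CPM in Ctrl, 137, 238 and 209 CPM in Abx_4D, 225, 189, 258 and 221 CPM in Abx_14D, and 152, 133, 116 and 167 CPM in GF. Both antibiotic groups lay above Ctrl, and it rose by 0.83 ± 0.22 in Abx_4D (adjusted p = 0.0378) and 1.01 ± 0.21 in Abx_14D (0.00364), the Abx_4D call being lost without any Ctrl sample, without Abx_4D sample 3 or 4 (0.0617 to 0.167) and under trimmed-mean scaling (0.0765). Cyp2s1, an AHR-inducible gene of epithelia, was at 12.9, 33.5 and 25.1 CPM in Ctrl and 87.1, 41.6, 42.7 and 85.8 CPM in GF, a log2 change of 1.27 ± 0.31 (0.0072) that ended without Ctrl sample 4 (0.0526). Cyp4f15 was singled out after its values were seen: it had too few counts for the test in this class, with 44 transcripts in Ctrl against 0 in Abx_4D, 5 in Abx_14D samples and 18 in GF samples. Its level in Ctrl was at least 13.55-fold higher than in Abx_4D, 23.26-fold that in Abx_14D (9.249 to 75.17) and 4.43-fold that in GF (2.508 to 8.146), intervals that cover counting error only.

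Other values moved with these groups. Stem markers in the absorptive cells summed to 92.6 to 100.2 CPM in Ctrl, 154 to 225 CPM in Abx_4D, 133 to 222 CPM in Abx_14D and 102 to 275 CPM in GF, so Ctrl lay below all other samples. The summed absorptive gate markers overlapped between groups (4952 to 8699 CPM in Ctrl and 4765 to 11609.7 CPM elsewhere). The part of the stem signal in the results was not tested. The 7 calls in Abx_4D fell to 1, Cyp4f14, without Ctrl sample 3, and to 4, of which 3 were among the 7, without Ctrl sample 4 or Abx_4D sample 3 or 4. Without Ctrl sample 3 the adjusted p of Cyp2d22 was 0.0678. The median mitochondrial share over all cells of a sample exceeded 0.5% in Abx_14D samples 3 and 4 and GF sample 4 among those used, and in no Ctrl sample. Within absorptive cells alone the medians overlapped, at 0.372 to 0.823% in Ctrl and 0.36 to 1.18% in the other samples. Without the samples above 0.5% over all cells, Cyp2j6 (0.0539), Cyp4f16 (0.194) and Cyp2d13 (0.138) no longer passed in Abx_14D, nor Cyp2c65 in GF (0.0542) or Cyp2d13 in Abx_4D (0.0524).

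**Figure D2:**
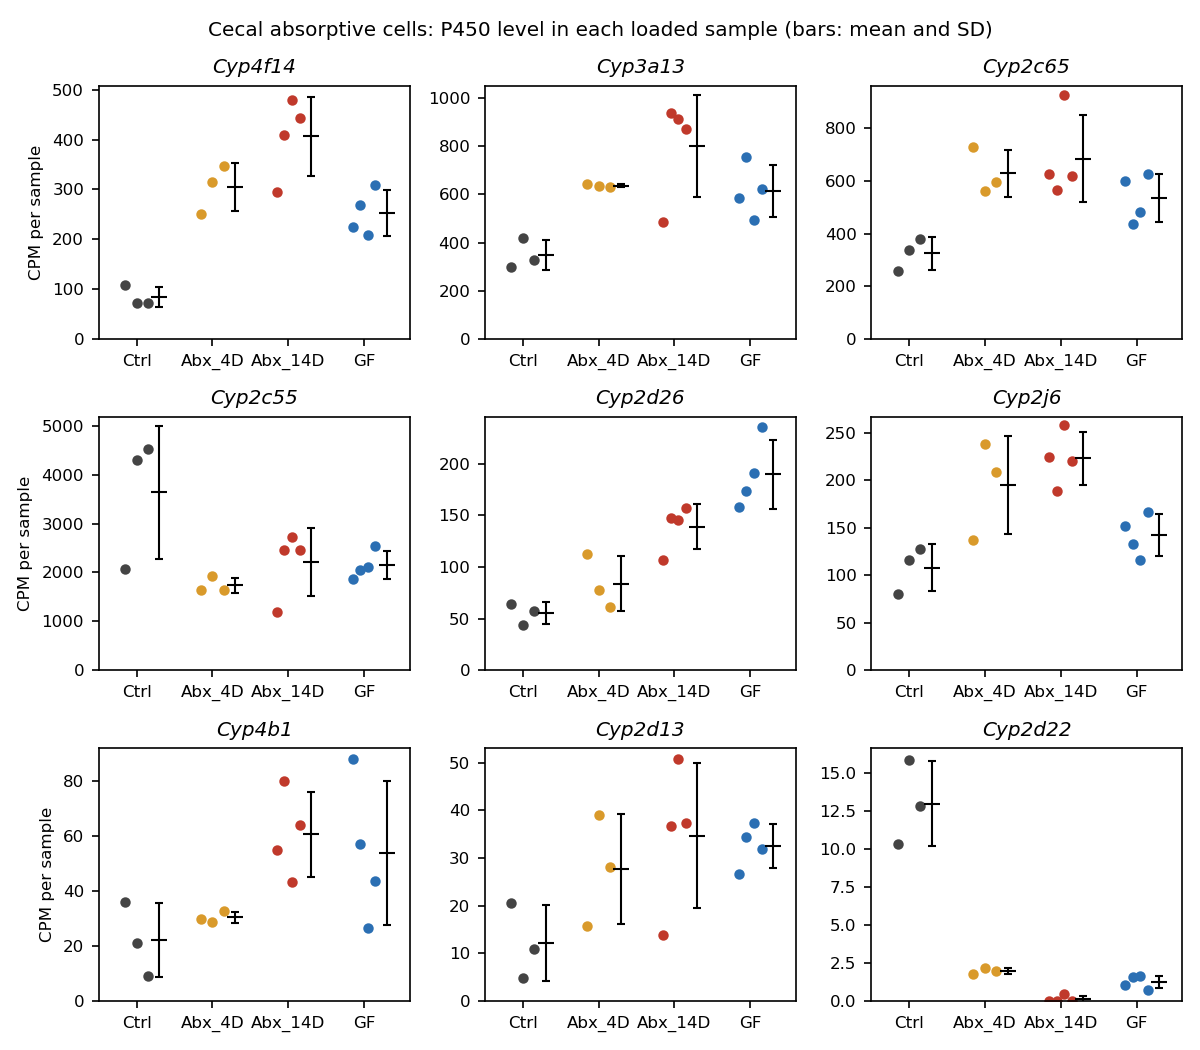
Level in CPM of 9 members in the cecal absorptive cells of each sample, with 1 panel per member; dots are samples and bars are the mean ± SD of Ctrl (n = 3), Abx_4D (n = 3), Abx_14D (n = 4) and GF (n = 4). Cyp4f14, Cyp3a13 and Cyp2c65 lie above Ctrl in every other sample, Cyp2d22 lies below it, and Cyp2c55 has 1 Ctrl sample at 2074 CPM among the other groups.

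The same members were followed along the absorptive score, the number of gate-marker transcripts per 10000, over crypt, intermediate and absorptive cells of the cecum. In Ctrl, Cyp4f14 was at 7.38 ± 5.04 CPM in cells scoring under 1, at 94.6 ± 19.5 CPM at 40 to 80 and at 52.7 ± 3.16 CPM at 80 and above. In Abx_14D it was at 17.1 ± 7.15 CPM, at 240.8 ± 18.9 CPM at 20 to 40 and at 567.5 ± 43.4 CPM at 80 and above, where GF had 357.8 ± 38.5 CPM. The gap between the groups was thus wider at high scores. Cyp2c55 was higher in the top bin than in the lowest in all groups, with 87.0 ± 51.4 and 6559.6 ± 547 CPM in Ctrl, and top bins of 2979.9 ± 871 CPM (Abx_4D), 3066 ± 571 CPM (Abx_14D) and 3123 ± 403 CPM (GF). The top Ctrl bins rest on 2 samples.

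Other members had shapes of their own along the score. Between the lowest and the top bin Cyp3a13 went from 19.3 ± 10.2 to 595.0 ± 123.9 CPM in Ctrl and from 15.5 ± 10.3 to 1203 ± 189 CPM in Abx_14D. Cyp2c65 had a flatter profile, from 141.2 ± 44.6 to 386.8 ± 33.4 CPM in Ctrl and from 269.5 ± 84.5 to 738.9 ± 128.0 CPM in Abx_14D. Its near-copy Cyp2c66 peaked in the middle, at 26.2 ± 10.3 CPM in Ctrl cells scoring 10 to 20, and was at 2.70 ± 0.29 CPM in the top bin. Cyp2d34 was high at the end of the range only and close between groups, at 218.8 ± 50.01 CPM in Ctrl, 266.3 ± 53.8 CPM in Abx_4D, 199.2 ± 33.5 CPM in Abx_14D and 211.8 ± 35.1 CPM in GF. Cyp2d26 reached 34.6 ± 2.27 CPM in the top bin of Ctrl and 234.8 ± 45.1 CPM in that of GF. The plot along the absorptive score is a description, since these bins were not tested.

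**Figure D3:**
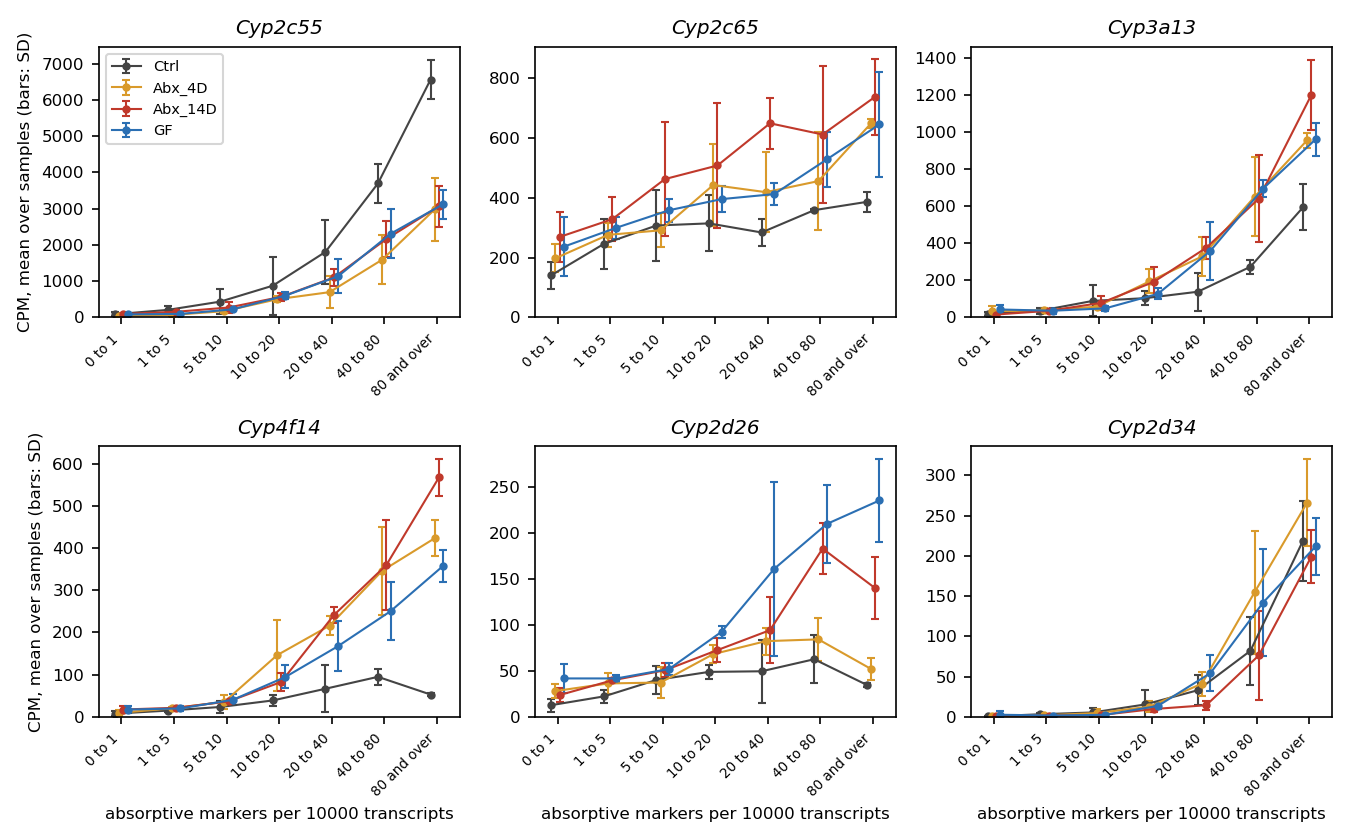
Mean level in CPM (± SD over samples) of 6 members in cecal cells by bin of the absorptive score, with 1 line per group. The lines of Cyp4f14 spread with the score, from 7.38 to 52.7 CPM in Ctrl and 17.1 to 567.5 CPM in Abx_14D between the lowest and highest bin, while those of Cyp2d34 stay close.

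In cecal crypt cells 2 members, Cyp2s1 and Cyp2d26, rose, and Cyp4f14, Cyp3a13 and Cyp2c65 did not pass. In Abx_14D 2 of 17 tested members passed, where 2.35% of all genes did, and in GF 2 passed, against 3.79%. Cyp2d26 was at 11.2 to 21 CPM in Ctrl, 25.7 to 40.4 CPM in Abx_14D and 37.1 to 43.4 CPM in GF, and Cyp2s1 was at 7.11 to 12.9 CPM in Ctrl, 19.5 to 25.3 CPM in Abx_14D and 20.1 to 42.7 CPM in GF. Neither gene's groups overlapped with Ctrl (n = 4 each). The log2 changes in Abx_14D and GF were 1.07 ± 0.24 and 1.29 ± 0.24 for Cyp2d26 (edgeR adjusted p = 0.0163 and 0.00267) and 1.03 ± 0.25 and 1.29 ± 0.25 for Cyp2s1 (0.0272 and 0.00349). In Abx_4D no member passed, against 0.508% of all genes, with 4 members at an unadjusted p under 0.05, 1 call by DESeq2 and 0 by limma-voom, and Cyp2d26 there had a log2 change of 0.97 ± 0.25 (adjusted p = 0.0956). The Abx_14D calls ended without Ctrl sample 2 (0.0744 and 0.102) or Abx_14D sample 3 (0.0556 and 0.0847), that of Cyp2d26 also without Abx_14D sample 1 (0.0544) and that of Cyp2s1 without Ctrl sample 3 (0.0585) or Abx_14D sample 4 (0.0686), and both ended without the samples of high mitochondrial share (0.0862 and 0.171). The summed absorptive gate markers in these crypt cells were 168 to 209 CPM in Ctrl, 215 to 242 CPM in Abx_14D and 251 to 295 CPM in GF, and their part in the result was not tested.

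Whether a group effect differed between absorptive and crypt cells was tested within the samples. For Abx_14D 2 of 25 members passed, against 2.11% of all genes: the change was larger in absorptive cells by 1.35 ± 0.32 for Cyp4f14 (edgeR adjusted p = 0.0230) and by 2.13 ± 0.52 for Cyp4b1 (0.0315). For GF 1 of 25 members passed, about the share of 3.99% over all genes, namely Cyp4b1 with 1.94 ± 0.54 (edgeR adjusted p = 0.0427). In crypt cells Cyp4f14 was at 14, 10.2, 9.16 and 9.04 CPM in Ctrl and 22.2, 18.3, 18.5 and 12.9 CPM in Abx_14D. Cyp4b1 was at 16.9, 16.2, 57.6 and 20.5 CPM and at 18.7, 20.3, 28.3 and 29.9 CPM there, so that Ctrl sample 3 stood apart. Both genes' calls ended without Ctrl sample 3 (0.114 for Cyp4f14 and 0.338 and 0.326 for Cyp4b1) or Ctrl sample 4 (0.142 for both genes in Abx_14D and 0.165 for Cyp4b1 in GF). Cyp4f14's call also ended without Abx_14D sample 3 (0.0614), Cyp4b1's in Abx_14D without Abx_14D sample 2 or 4 (0.0869 and 0.0557), and in GF without Abx_14D sample 4 or GF sample 1, 2 or 4 (0.0541 to 0.0934). Without the samples of high mitochondrial share Cyp4f14 (0.219) and, in GF, Cyp4b1 (0.0962) did not pass. For Abx_4D no member passed, against 0.844% of all genes, with 7 at an unadjusted p under 0.05 and 0 calls by DESeq2 or limma-voom.

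**Figure D4:**
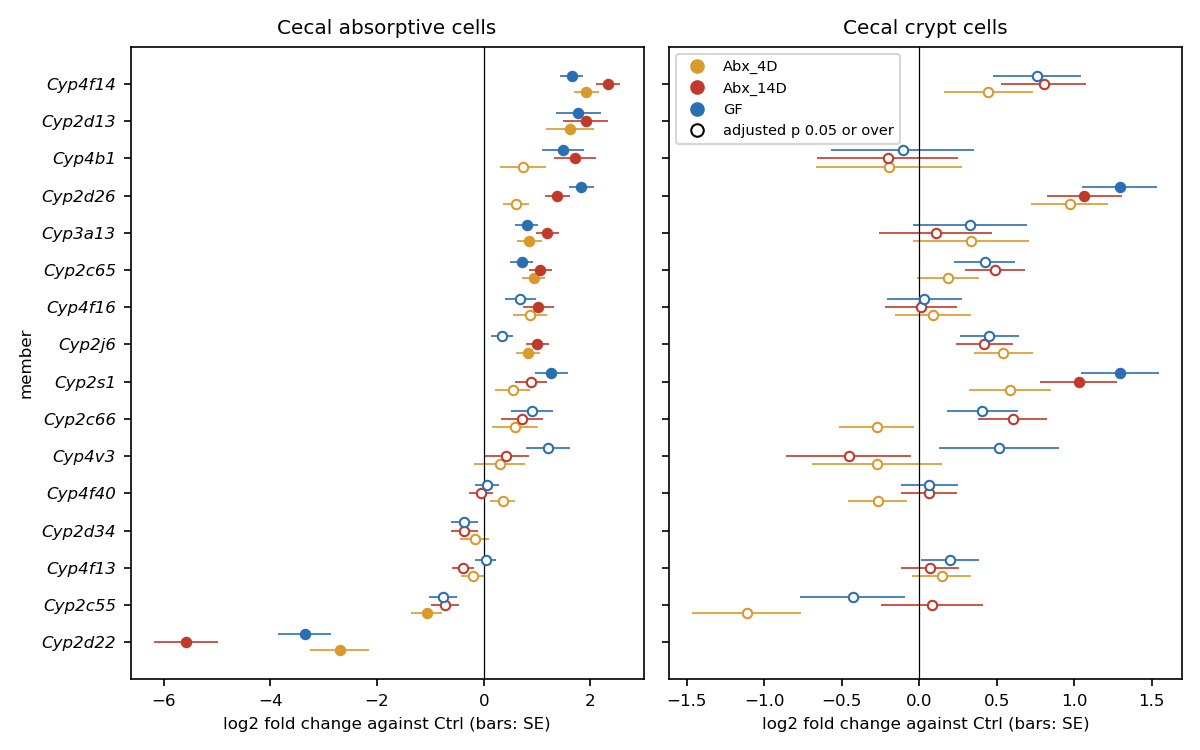
Log2 change (± SE) against Ctrl of the tested members in cecal absorptive and crypt cells, with 1 colour per group; filled points have an adjusted p under 0.05. In absorptive cells Cyp4f14 lies to the right in all 3 groups, at 1.65 to 2.34, and Cyp2d22 farthest left, and in crypt cells only Cyp2d26 and Cyp2s1 have filled points.

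Among the antibiotic and GF groups few differences passed. In cecal absorptive cells 1 of 16 members differed between GF and Abx_14D, against 2.25% of all genes. That member was Cyp4f14, lower in GF by 0.69 on the log2 scale (log2 change -0.69 ± 0.18, edgeR adjusted p = 0.0496), with overlapping samples, and the call ended without any of 9 samples, among them Abx_14D sample 3 (0.226) and GF sample 3 (0.202), and without those of high mitochondrial share (0.5). Between Abx_14D and Abx_4D 0 of 16 members passed, against 0.0599% of all genes, with 3 at an unadjusted p under 0.05, 1 call by DESeq2 and 0 by limma-voom. In cecal crypt cells 0 of 17 passed between GF and Abx_14D (0.175% of all genes, 1 at an unadjusted p under 0.05) and 0 between Abx_14D and Abx_4D (0.114%, 2 at an unadjusted p under 0.05), and DESeq2 and limma-voom called 0 in both. In cecal goblet cells 0 of 12 passed between GF and Abx_14D (0.177% of all genes, 2 at an unadjusted p under 0.05, 0 by either other tool).

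In the colon, GF and Abx_14D could be compared in 3 classes. In absorptive cells 0 of 15 members passed (1.69% of all genes, 6 at an unadjusted p under 0.05), and in crypt cells 0 of 20 (0.988%, 1 at an unadjusted p under 0.05), with 0 calls by DESeq2 and limma-voom in both. In goblet cells 1 of 11 passed, against 0.718% of all genes: Cyp2d34 was at 2.74, 9.64, 16.2 and 1.27 CPM in Abx_14D and 22.5, 36.3, 27.3 and 42.2 CPM in GF. The samples did not overlap, the log2 change was 2.09 ± 0.44 (edgeR adjusted p = 0.0436), and the call ended without any of 7 of the 8 samples (0.0533 to 0.117). Cyp2d34 passed the low-count filter through GF, the group where it was high, so its direction was set by that filter. The summed absorptive gate markers in these goblet cells moved the same way, from 29.6, 56.4, 35.2 and 44.3 CPM in Abx_14D to 67.1, 94.2, 59.3 and 53.2 CPM in GF, and their part in this result was not tested. The difference of the class effect between GF and Abx_14D in the colon passed for 0 of 22 members (0.0867% of all genes, 8 at an unadjusted p under 0.05, 0 by DESeq2 or limma-voom).

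Absorptive cells of the colon had more Cyp2c68 and less Cyp2c55 than those of the cecum, in Abx_14D and in GF mice, while Cyp2c55 and Cyp2c65 were the most abundant Cyp2c members of both tissues. In absorptive cells 8 of 17 members differed between the tissues in Abx_14D, where 9.83% of all genes did, and 7 in GF, against 9.64%. Cyp2c68, and in Abx_14D Cyp2d12, entered these counts through the colon and add no support to them. Cyp2c68 was at 2.79, 2.72, 1.86 and 2.32 CPM in the cecum and 50.1, 24.7, 36.1 and 39.4 CPM in the colon of Abx_14D mice, and at 4.25, 3.14, 2.96 and 9.78 against 89, 46.4 and 104 CPM in GF. Every colonic sample lay above every cecal one, with log2 differences of 4.07 ± 0.41 and 3.89 ± 0.37. Cyp2c68 passed the low-count filter of this class through the colon alone, so its direction was set by that filter. Cyp2c68 is 98.0% identical to Cyp2c40, so the counts of these copies are uncertain. Cyp2c55 was lower in the colon, at 980.2 to 1280.1 CPM in Abx_14D (-0.99 ± 0.21) and 872 to 1129.7 CPM in GF (-1.14 ± 0.23), and Cyp2c65 passed in neither (-0.55 ± 0.18, adjusted p = 0.0617, and -0.61 ± 0.20, adjusted p = 0.0581).

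Other members of the absorptive cells also differed by tissue. Lower in the colon of both groups were Cyp2j6 (-1.35 ± 0.19 in Abx_14D and -1.33 ± 0.21 in GF) and Cyp2d26 (-1.16 ± 0.23 and -1.16 ± 0.24), and in Abx_14D also Cyp4f14 (-1.29 ± 0.22) and Cyp3a13 (-0.74 ± 0.21). Higher in the colon of both was Cyp2s1 (0.85 ± 0.25 and 1.01 ± 0.26), in Abx_14D also Cyp2d12 (3.62 ± 0.97, from 23 colonic and 12 cecal transcripts), and in GF also Cyp4b1 (1.22 ± 0.38) and Cyp2d13 (1.13 ± 0.36). Cyp2d12 passed the low-count filter through the colon, so its direction was set by that filter. Single samples ended some of these calls: in Abx_14D that of Cyp3a13 without any of 5 samples (adjusted p = 0.0501 to 0.091), that of Cyp2s1 without any of 4 (0.0562 to 0.0997) and that of Cyp2d12 without colon sample 2 (0.195), and in GF that of Cyp2s1 without cecal sample 3 (0.0503), that of Cyp4b1 without any of 6 (0.05 to 0.4) and that of Cyp2d13 without any of 8 (0.0517 to 0.172). Without the cecal samples of high mitochondrial share, Cyp2c55 (0.0893), Cyp2d12 (0.174), Cyp2s1 (0.0866) and Cyp3a13 (0.274) no longer passed in Abx_14D, nor Cyp2d13 (0.0852) and Cyp4b1 (0.122) in GF; no colonic sample had such a share. Whether the tissue difference itself differed between GF and Abx_14D passed for 0 of 17 members (0% of all genes), with Cyp4f14 (1.37 ± 0.31, adjusted p = 0.234) and Cyp4v3 at an unadjusted p under 0.05, 1 call by DESeq2 and 0 by limma-voom. The gate markers summed to 2952 to 5291 CPM in colonic and 4765 to 11609.7 CPM in cecal absorptive cells of these groups, and their part in the result was not tested.

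In crypt cells the cluster neighbours Cyp2c55, Cyp2c65 and Cyp2c66, shown above, were all lower in the colon. In Abx_14D 11 of 20 members differed, where 37.6% of all genes did, and in GF 10, against 18.7%. Cyp2c65 was at 280.1, 217, 355 and 330.3 CPM in cecal and 37.3, 43.4, 30.9 and 29.3 CPM in colonic crypt cells of Abx_14D mice, and at 279.8, 266, 274 and 310.4 against 56.1, 40.8, 31.2 and 23.7 CPM in GF. The tissues were far apart in both groups, with log2 differences of -3.06 ± 0.21 and -2.87 ± 0.20. Cyp2c66 differed by -4.11 ± 0.32 and -3.32 ± 0.29, from 20.1 to 32.3 CPM in the cecum to 0.401 to 3.24 CPM in the colon, and Cyp2c55 by -2.42 ± 0.24 and -1.79 ± 0.23. The colonic Cyp2c66 values lay near or below the limit of the low-count filter, so its calls add little support. Cyp2c68 went the other way, with 2.29 ± 0.50 and 2.82 ± 0.56.

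Of the other crypt members, Cyp4f14 (-1.75 ± 0.24 and -1.22 ± 0.23), Cyp2d26 (-1.19 ± 0.17 and -1.49 ± 0.17) and Cyp2j6 (-0.47 ± 0.14 and -0.54 ± 0.14) were lower in the colon of both groups, and Cyp2w1 was lower in GF (-1.13 ± 0.31). Cyp4v3, related to the human fatty acid hydroxylase CYP4V2, was higher in the colon by 2.03 ± 0.28 in Abx_14D, from 1.38 to 4.64 CPM up to 8.87 to 13.2 CPM, and by 0.76 ± 0.26 in GF. Cyp4f17 was higher by 1.15 ± 0.26 and 0.85 ± 0.28, and in Abx_14D Cyp4f13 (0.66 ± 0.15) and Cyp2r1 (0.95 ± 0.36) were higher too. In GF the call of Cyp4v3 ended without any of 13 single samples (adjusted p = 0.0501 to 0.118), that of Cyp4f17 without any of 7 (0.0502 to 0.1) and that of Cyp2w1 without cecal sample 1 or 3 (0.0848 and 0.0868), and in Abx_14D that of Cyp2r1 without any of 7 (0.0515 to 0.152). Without the samples of high mitochondrial share Cyp2j6 (0.19) and Cyp2r1 (0.324) did not pass in Abx_14D, nor Cyp4f17 (0.103) and Cyp4v3 (0.0635) in GF. The interaction of tissue and group passed for 0 of 20 members (0% of all genes, 1 at an unadjusted p under 0.05, 0 by DESeq2 or limma-voom). Absorptive gate markers summed to 215 to 295 CPM in cecal and 46.8 to 87.3 CPM in colonic crypt cells, and their part in these differences was not tested.

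Goblet cells showed the same tissue contrast for Cyp2c65. In Abx_14D 5 of 12 members differed, where 13.1% of all genes did, and in GF 3, against 8.70%. Cyp2c65 was at 168, 83.6, 112 and 212 CPM in cecal and 5.47, 5.93, 1.9 and 3.8 CPM in colonic goblet cells of Abx_14D mice, and at 62.8, 123, 86.2 and 257 against 11.9, 27.5, 6.06 and 6.26 CPM in GF. No colonic sample reached a cecal one, with log2 differences of -4.97 ± 0.56 and -3.28 ± 0.45. Cyp2c65 passed the low-count filter of goblet cells through the cecum alone. Its direction was set by that filter, so it adds no support to the counts above. Cyp3a13 (-2.20 ± 0.46 and -1.60 ± 0.44) and Cyp2c55 (-2.07 ± 0.61 and -2.02 ± 0.51) were lower in the colon of both groups, Cyp2j6 was lower (-0.78 ± 0.26) and Cyp2c68 higher (2.23 ± 0.41) in Abx_14D. In Abx_14D the call of Cyp2c55 ended without cecal sample 4 (adjusted p = 0.239) or colonic sample 1, 3 or 4 (0.0527 to 0.0747) and that of Cyp2j6 without any of 12 (0.05 to 0.133); in GF that of Cyp2c55 ended without cecal sample 4 (0.0708) or colonic sample 3 (0.0544), and that of Cyp3a13 without cecal sample 2 or 3 or colonic sample 3 or 4 (0.051 to 0.161). Without the samples of high mitochondrial share Cyp2c55 (0.242), Cyp2c68 (0.0506) and Cyp2j6 (0.125) did not pass in Abx_14D. The interaction passed for 0 of 12 members (0% of all genes, 3 at an unadjusted p under 0.05, 0 by DESeq2 or limma-voom). The gate markers summed to 79.5 to 302 CPM in cecal and 29.6 to 94.2 CPM in colonic goblet cells, and their part in the result was not tested.

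**Figure D5:**
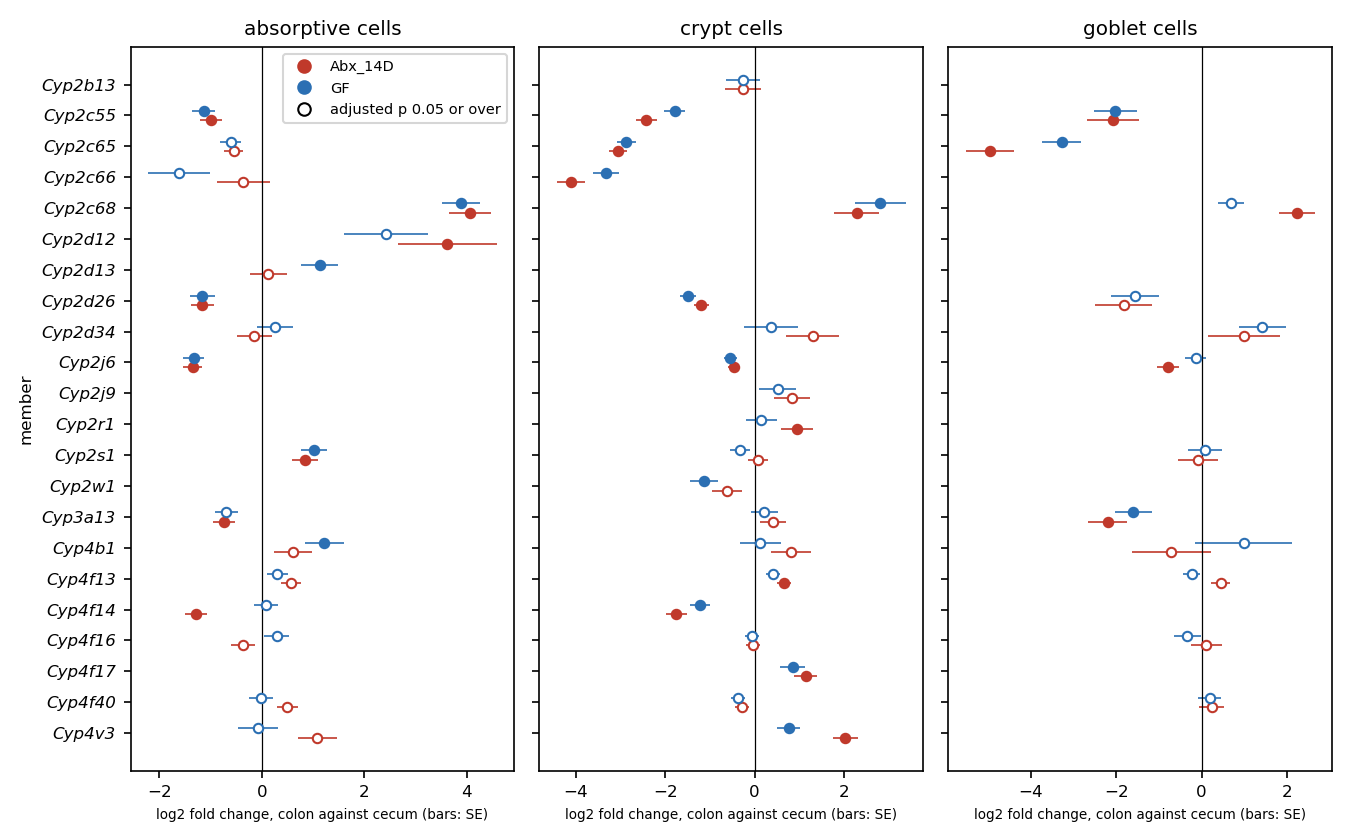
Log2 difference between colon and cecum (± SE) of the tested members in absorptive, crypt and goblet cells, for Abx_14D and GF; filled points have an adjusted p under 0.05 and values above 0 are higher in the colon. Cyp2c68 lies to the side of the colon in all panels, and Cyp2c65, at -0.55 in absorptive cells, reaches -3.06 in crypt and -4.97 in goblet cells of Abx_14D mice. The low-count filter set the direction of Cyp2c68 in absorptive cells and of Cyp2c65 in goblet cells.

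The other genes of the pathway were followed by fixed lists. Of 10 electron-transfer and partner genes 8 were tested in cecal absorptive cells, and none passed in Abx_4D. Cyb5b, a cytochrome b5 gene, rose in Abx_14D (0.73 ± 0.19). In GF Cyb5b (0.67 ± 0.19) and Pgrmc2 (0.80 ± 0.26) rose while Por fell by 0.94 on the log2 scale. Of 19 regulators 18 were tested: Pparg fell by 0.80 in Abx_4D, none passed in Abx_14D, and in GF 4 rose, Ahr (1.36 ± 0.29), Nr1h3 (1.05 ± 0.34), Ppara (0.95 ± 0.24) and Hnf4g (0.94 ± 0.20), and 1 fell. Of 8 AHR targets outside the members 5 were tested, and the changes that passed were those in GF of Ugt1a6a (0.68 ± 0.19) and Aldh3b1 (-1.56 ± 0.49).

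The lists of nuclear-receptor targets were mixed. Of 13 tested PXR and CAR targets, Abx_4D and Abx_14D each had 3 that rose and 1 that fell, and GF had 2 of each. The retinal dehydrogenase Aldh1a1 (1.62 ± 0.20, 2.12 ± 0.20 and 1.99 ± 0.20 in Abx_4D, Abx_14D and GF) and its relative Aldh1a7 (2.98 ± 0.58, 3.42 ± 0.55 and 2.94 ± 0.56) rose in all groups, the glutathione transferase Gsta1 rose in both antibiotic groups (1.96 ± 0.48 and 2.54 ± 0.43), and the carboxylesterase Ces2a fell (-1.39 ± 0.33, -1.58 ± 0.29 and -1.87 ± 0.30). Of 13 tested PPAR targets 2, 3 and 1 rose, namely Creb3l3 in all groups (2.71 ± 0.58, 2.72 ± 0.54 and 2.02 ± 0.57), Fabp2 in Abx_4D and Abx_14D (1.07 ± 0.30 and 1.27 ± 0.29) and Acaa2 in Abx_14D (0.77 ± 0.24). None of the 3 tested P450 genes of other families passed. The list medians ranged from -0.75 to 0.57, beside 0.17 to 0.18 over all genes.

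In the class comparison of the cecum, where 23.1% of all genes were higher in absorptive cells and 61.6% lower, the lists differed. Of 5 AHR targets 1 was higher and 1 lower (median -0.20), and of 14 PPAR targets 7 were higher and 5 lower (median 0.12). Of 14 PXR and CAR targets 10 were higher in absorptive cells and 3 lower (median 1.17), led by the carboxylesterases Ces2c (5.16 ± 0.11) and Ces2a (3.41 ± 0.15). Of 18 regulators 8 were higher and 6 lower (median 0.14), with Nr1i3, which encodes CAR (2.98 ± 0.50), and Nr1h4, the bile acid receptor (1.73 ± 0.09), higher and Ahr (-1.31 ± 0.09) lower. Of 9 partners 4 were higher and 3 lower, with Por at 0.66 ± 0.07 and the epoxide hydrolase Ephx1 at -3.46 ± 0.30. Among the P450 genes of other families 4 were tested, and Cyp39a1 (-2.14 ± 0.13) and Cyp20a1 (-1.62 ± 0.16) were lower and Cyp51 (0.92 ± 0.08), of sterol synthesis, higher. Between the tissues, absorptive cells of the colon had more Ppara (1.23 ± 0.22 in Abx_14D and 0.92 ± 0.23 in GF), Hnf4g (1.13 ± 0.20 and 0.75 ± 0.21), Pdk4 (2.19 ± 0.44 and 2.46 ± 0.51) and Cyp27a1 (3.20 ± 0.68 and 1.74 ± 0.51), and less Aldh1a1 (-0.95 ± 0.20 and -1.31 ± 0.22) and Fabp2 (-1.67 ± 0.21 and -1.62 ± 0.24), than those of the cecum.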

How the data were processed

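Sorted epithelial cells of mouse cecum and colon were sequenced by combinatorial barcoding (Evercode WT kit of Parse Biosciences), per the labels' protocols. The authors deposited 1 matrix of raw transcript counts for 24609 barcodes and 33696 genes with a table that names the loaded sample of each barcode. The submitters' processing notes name the build mm39 and Seurat; the name of the aligner is not stated there. All conditions were present in each of the 8 deposited sublibraries, so groups come from the names of the loaded samples.

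Cells with at least 500 transcripts were kept (15916, of which 14840 belong to the groups used), and no kept cells share a full barcode, while 937 share a well combination with a cell of another sublibrary. Doublets were not called. Cells passing gates of 2 classes, 31 in all, were set aside as possible doublets. Marker scores are transcripts per 10000: absorptive cells had at least 10 with at least 3 markers detected and more than their stem score, crypt cells had a stem score of at least 20 or a cycling score of at least 10 with an absorptive score under 5, and goblet cells had at least 40. Of absorptive cells 3.358% lay within 20% of the limit. Of the 12 absorptive markers 5 were left out of the gate after the data were seen because other classes express them broadly.

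Counts were summed per loaded sample and class (at least 20 cells) and tested with edgeR 4.0.16 (quasi-likelihood, library-size scaling, filterByExpr, Benjamini-Hochberg over all genes, adjusted p under 0.05), with the sample as a block where classes were compared. DESeq2 1.42.0 and limma 3.58.1 (voom) were alternatives, run in R 4.3.3. Other steps used Python 3.11.15, numpy 2.4.6, pandas 2.3.3, scipy 1.17.1 and matplotlib 3.10.9. The scripts were tested on simulated data. Members were matched to RefSeq promoters (62 of 76) and to GENCODE M21 transcripts (75 of 76), whose longest coding model gave lengths.

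The members were fixed by symbol and no expression value entered that rule, but the family and the gene lists were chosen with earlier results of these data known. A member is named where a group mean reached 10 CPM in a tested class or where it passed any comparison. Of each list up to 4 genes that passed are named, those with the largest change. Cyp2j13, Cyp4x1 and Cyp4f15 were named after their values were seen.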

Additional observations from a re-analysis of the deposited data

Results flagged for a closer look

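Among 100 groups of 4 samples, those of the comparisons in which a member passed, 11 had a sample that stood apart from the other 3, where chance gives about 1 in 20. In cecal absorptive cells of Abx_14D mice, sample 1 was low in Cyp3a13 (486.5 CPM, others 870.6 to 937.9) and in Cyp2s1 (37.21 CPM, others 51.73 to 52.61), and Cyp2d22 was at 0.4304 CPM in 1 sample and 0 in the others. In colonic Abx_14D absorptive cells Cyp3a13 was at 397.0 CPM in 1 sample (others 504.0 to 515.6). In colonic Abx_14D crypt cells 1 sample stood high in Cyp4f13 (61.63 CPM, others 52.14 to 53.53), in Cyp4f14 (7.341 CPM, others 4.875 to 5.103) and in Cyp2c68 (25.7 CPM, others 6.677 to 7.543). In GF crypt cells 1 sample was low in cecal Cyp4v3 (3.559 CPM, others 5.522 to 5.893) and in colonic Cyp4f17 (4.01 CPM, others 6.274 to 6.411). In cecal Ctrl crypt cells Cyp4b1 was at 57.62 CPM in sample 3 (others 16.25 to 20.52). In colonic Abx_14D goblet cells Cyp3a13 was at 68.4 CPM in 1 sample (others 21.34 to 24.76).

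The change against Ctrl differed between cecal absorptive and crypt cells, by the test of that difference, for Cyp4f14 in Abx_14D (1.354 on the log2 scale) and for Cyp4b1 in Abx_14D (2.134) and GF (1.94). In GF the share of members called, 4.0%, was that of all genes, 3.99%. DESeq2 and trimmed-mean scaling gave 0 calls there. The Cyp4b1 call held in 16 of 30 alternatives in GF and 19 of 30 in Abx_14D, and that of Cyp4f14 in 21 of 30. All of these calls ended without Ctrl sample 3 or 4.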

How the results depend on the processing

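The numbers of members called moved as follows. In cecal absorptive cells the 7 calls in Abx_4D became 4 under trimmed-mean scaling, 4 and 3 without sublibrary 2 or 3, 1 with all cells summed, and 1 to 8 without single samples; the 9 in Abx_14D became 3 and the 8 in GF 4 with all cells summed. The single call between GF and Abx_14D became 2 with DESeq2, voom, no filter, the replicate block or without sublibrary 1, 0 with all cells, at 2000 transcripts, without samples of high mitochondrial share or without sublibrary 2, 3 or 5, and 0 to 2 without single samples. Between Abx_14D and Abx_4D, DESeq2 and no filter gave 1 in place of 0. In colonic absorptive cells, no filter and the fit without sublibrary 1 gave 1 in place of 0.

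In crypt cells the 0 calls in Abx_4D became 1 with DESeq2, 2 without the filter and 0 to 1 without single samples; the 2 in Abx_14D became 1 with strict gates, 0 without samples of high mitochondrial share, 1 without sublibrary 1 or 2 and 0 to 2 without single samples; the 2 in GF became 4 without the filter and 1 with strict gates; Abx_14D against Abx_4D went from 0 to 1 without the filter. For goblet cells, no filter gave 2 in the cecum in place of 0 and 2 in the colon in place of 1, trimmed-mean scaling gave 0 in the colon, and leaving out single samples gave 0 to 1 there.

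For colon against cecum in absorptive cells the 8 calls in Abx_14D became 19 with all cells, and 4 without samples of high mitochondrial share or without sublibrary 6; the 7 in GF became 12 with all cells, 15 without the filter, 3 without sublibrary 4 and 4 to 8 without single samples; the interaction gave 1 with DESeq2 or no filter in place of 0. In goblet cells the 5 in Abx_14D became 2 without samples of high mitochondrial share and 3 to 5 without single samples, the 3 in GF became 7 without the filter and 1 to 4 without single samples, and the interaction gave 1 without the filter. With all cells summed, Cyp2d13 (-1.05) and Cyp2s1 (-0.32) were reversed in GF.

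For the difference of a group effect between classes, Abx_4D went from 0 to 2 without the filter, 1 without sublibrary 6 and 0 to 1 without single samples. Abx_14D went from 2 to 1 with DESeq2, 4 with voom or no filter, 0 with no replicate block or strict gates, 1 without samples of high mitochondrial share, 0 without sublibrary 2 or 3, 1 without sublibrary 4, 5 or 7 and 0 to 2 without single samples. GF went from 1 to 0 with DESeq2, trimmed-mean scaling, no replicate block, without samples of high mitochondrial share or without sublibrary 2, 3, 4 or 5, to 2 without the filter and to 0 to 1 without single samples. The causes were not tested.

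Of calls on single members, 108 of 121 kept direction and threshold under trimmed-mean scaling, 112 with DESeq2, 116 with voom, 116 without the filter and 120 at 2000 transcripts, 1443 of 1614 without 1 sample and 774 of 858 without 1 sublibrary. Fewer held with stricter gates (103 of 119) and without samples of high mitochondrial share (94 of 119). With all cells summed 16 of 37 did, while 19 were weaker and 2 reversed. With the replicate block 70 of 74 did and with no replicate block 43 of 47. Sample numbers were not taken to pair the samples, since not every pair exceeded 0.1: in cecal absorptive cells the correlation of same-numbered deviations ran from -0.124 to 0.347 over 18 pairs, in cecal crypt cells from -0.333 to 0.441 over 24, in colonic absorptive cells from 0.052 to 0.098 over 3 and in colonic crypt cells from 0.017 to 0.24 over 4. The medians, 0.077, 0.154, 0.055 and 0.124, lay above those of other pairs, -0.024, -0.054, -0.029 and -0.061, a hint from the data and not from the design. Sublibraries were not left out for goblet cells, whose cecal comparisons with Ctrl were not run, since Ctrl and Abx_4D had 2 samples each there. Few cells limit all of this: cecal Ctrl had 293 absorptive cells and the colon 240, so differences that did not pass may be real, and members under a few CPM could not be tested.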

Other observations

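Rare classes had members of their own, and these values were looked at after the data were seen and were not tested. Cyp2j13, a relative of the arachidonic acid epoxygenases, had 128 transcripts in 187 colonic tuft cells, the chemosensory cells of the epithelium, or 71.0 CPM (exact Poisson interval 59.2 to 84.4, counting error only), and 15 transcripts in 41 cecal tuft cells, or 26.0 CPM (14.5 to 42.9). In the absorptive, crypt, goblet and enteroendocrine classes of both tissues it was at most 0.45 CPM. Cyp4x1, an orphan P450 best known from brain, had 38 transcripts in 40 colonic enteroendocrine cells, or 45.5 CPM (32.2 to 62.4), from 3 of 8 samples, and 12 transcripts in 18 cecal ones, or 34.9 CPM (18.0 to 61.0), from 3 of 10 samples.

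Cyp2c68 was not confined to absorptive cells of the colon. Its summed level there was 61.2 CPM in absorptive cells, 77.8 CPM in cells between the crypt and absorptive gates, 28.7 CPM in goblet cells and 9.87 CPM in crypt cells, and 106.5 CPM in the 40 enteroendocrine cells (85.6 to 131.1). In the cecum it was 64.0 CPM in enteroendocrine cells (40.1 to 96.9), against 11.1 CPM in goblet and 2.94 CPM in absorptive cells. Cyp4b1 was at 52.7 CPM in colonic enteroendocrine cells.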
